A study of Mus musculus with 8 samples.

Results

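Lung RNA of PTU-treated SMRTmRID embryos was set against lung RNA of untreated wild-type embryos, using 4 of the 8 arrays of the series: the 2 arrays titled SMRTmRID with PTU and the 2 titled normal wild type without PTU. The mRID PTU group came from E18.5 embryos with the SMRTmRID allele on a c57Bl6/J background, whose mothers ate chow with 0.15% PTU for 2 days from E16.5. The WT PTU group, used only for side-by-side values, was c57Bl6/J of the same age on the same PTU diet. The WT control group was c57Bl6/J of the same age on control chow. The mRID PTU and WT control groups therefore differed in both genotype and diet, and these cannot be told apart in a direct comparison of them. No untreated mutant array entered the comparison. The labels call the arrays of a group technical replicates, so each group was taken as 1 RNA sample on 2 arrays (A and B). All p-values below measure the spread between arrays of 1 RNA sample, not between embryos. How many lungs were pooled for each RNA is not stated in the labels.

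Unliganded nuclear receptors, among them the thyroid hormone receptors, repress their target genes by binding corepressors through receptor interaction domains, and the mRID allele mutates such domains. Propylthiouracil (PTU) is an antithyroid drug that blocks thyroid hormone synthesis. Late in gestation the distal lung epithelium matures into flat type I pneumocytes, which form the gas exchange surface, and type II pneumocytes, which make surfactant. The question was how close the treated mutant lung was to the normal lung, and which genes stayed different.

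Each array of the series detected 54.73% to 58.8% of its probes (detection p-value under 0.05), and the mean signal per array lay between 293.7 and 376.1. In the 4 arrays compared, 14719 of 25697 probes were detected on both arrays of at least 1 group. These gave 10144 named genes, each measured by its brightest kept probe on a background-corrected, quantile-normalized log2 signal scale. The samples carried lung markers at high signal. Sftpc, the surfactant protein made by type II pneumocytes, had log2 signals of 13.61 and 13.62 on the mRID PTU arrays, against 13.51 and 13.62 on the WT control arrays. Nkx2-1, the transcription factor that specifies lung epithelium, had 12.32 and 12.25 on the mRID PTU arrays and 12.21 and 12.10 on the WT control arrays.

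Most of the transcriptome was close between the treated mutant and the normal lung. The 95% confidence interval of the difference lay inside 1.5-fold for 8871 genes, or 87.5% of those tested. The median absolute log2 difference was 0.12, and 95.8% of genes differed by less than 1.5-fold. A gene was called different at a limma adjusted p-value under 0.05 with at least a 1.5-fold difference. By that rule 431 genes (4.25%) were called, of which 282 (2.78%) were higher and 149 (1.47%) were lower in mRID PTU lung. These shares are the reference for the counts of called list members below. For example, 1 call in a list of 18 genes (5.56%) is near the overall share. The higher calls were more numerous, but the largest differences lay on the lower side: 82 called genes were at least 2-fold higher and 49 at least 2-fold lower, whereas 1 called gene was at least 4-fold higher and 11 were at least 4-fold lower.

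Across genes, the root mean square log2 difference was 0.307 to 0.313 between an mRID PTU and a WT control array, against 0.173 between the mRID PTU arrays and 0.172 between the WT control arrays. The groups were thus farther apart than arrays of 1 RNA sample. When the 6 arrays of mRID PTU, WT PTU and WT control were normalized together, the root mean square log2 difference between group means was 0.283 for mRID PTU against WT control. It was 0.279 for mRID PTU against WT PTU and 0.287 for WT PTU against WT control. The treated mutant sample was therefore at about the same distance from the untreated and the treated wild-type sample, and these values have no test. In the scatter of group means, genes lie along the diagonal over the whole signal range, with the farthest points below it.

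**Figure D1:**
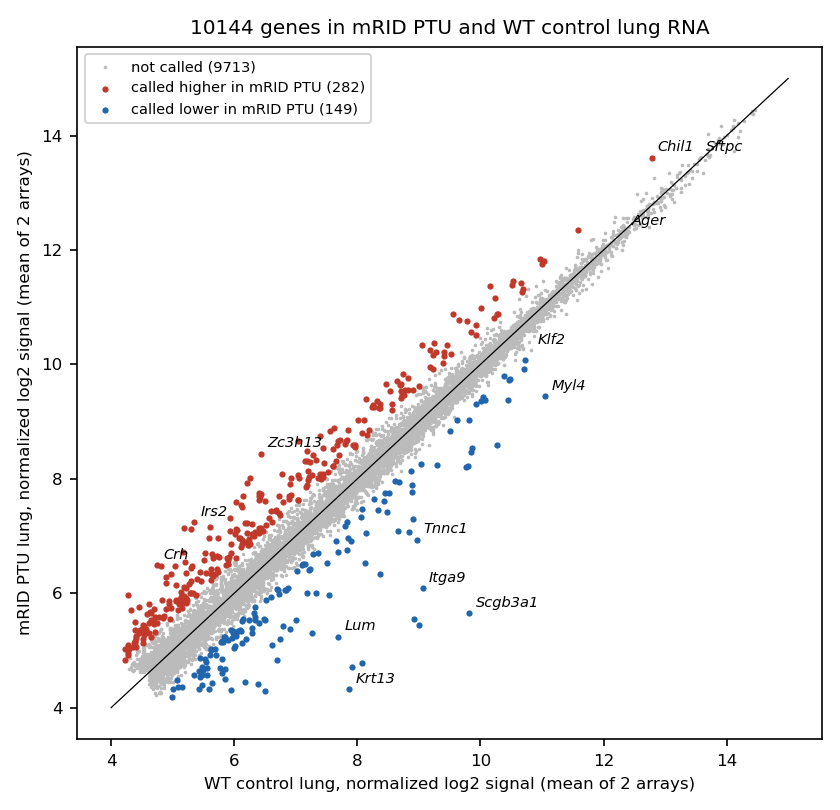
Normalized log2 signal of 10144 genes, mean of 2 arrays each, with mRID PTU lung on the vertical axis and WT control lung on the horizontal axis; the line marks equality. Red points are the 282 genes called higher and blue points the 149 called lower in mRID PTU, and Scgb3a1, Krt13 and Lum lie far below the line while Sftpc and Ager lie on it.

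Of 18 tested type I pneumocyte genes, 16 (88.9%) had an interval inside 1.5-fold, near the 87.5% of all tested genes. Of the list 1 was called higher and 1 lower. The median log2 difference was -0.14, against -0.02 over all genes, and 14 of the 18 lay below 0. Ager, which encodes the receptor that marks type I cells, had log2 signals of 12.48 and 12.18 in mRID PTU lung, against 12.32 and 12.38 in WT control lung. Pdpn (podoplanin) had 11.44 and 11.56 in mRID PTU lung, against 11.63 and 11.65 in WT control lung. The Ager values of the groups overlapped, and the Pdpn values did not overlap but lay within 1.5-fold. Aqp5, the water channel of the type I apical membrane, was 1.51-fold lower, with 9.88 and 9.70 in mRID PTU lung against 10.50 and 10.27 in WT control lung (adjusted p = 0.0109). A further Aqp5 probe was also called lower, at a log2 difference of -0.61 (adjusted p = 0.0134). The call of the probe used depends on single arrays. Its log2 difference was -0.48 without WT control array A and -0.50 without mRID PTU array B, both short of 1.5-fold. The lipid-binding gene Sec14l3 was 1.68-fold higher, with 9.33 and 9.30 against 8.51 and 8.63 (adjusted p = 0.00101).

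Among 20 tested type II pneumocyte and surfactant genes 19 (95%) had an interval inside 1.5-fold, none was called lower, and the median log2 difference was 0.01. The exception was Chil1, a chitinase-like secreted protein, at 13.64 and 13.59 in mRID PTU lung against 12.74 and 12.82 in WT control lung, or 1.79-fold higher (adjusted p = 0.000472). Chil1 was also higher in WT PTU lung, at 13.59 and 13.61. Of 15 lung epithelial transcription factors 3 were called higher and none lower. Stat3, which carries cytokine signals to the nucleus, was 1.84-fold higher (adjusted p = 0.000315). The forkhead repressor Foxp1 was 1.72-fold higher (adjusted p = 0.00129) and Sox9, a factor of the distal bud tip, 1.52-fold (adjusted p = 0.00706). Further Stat3 probes had log2 differences of 0.93 and -0.01, against 0.88 for the probe used. The Sox9 call was lost without WT control array A, without WT control array B and without mRID PTU array A, where its log2 difference was 0.56, 0.64 and 0.49.

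Endothelial genes gave no call in either direction among 20 tested, and 19 had an interval inside 1.5-fold. DNA replication genes gave none among 26, with 25 inside 1.5-fold, and cyclin-dependent kinase inhibitors gave none among 6, all inside. Over all tested genes 4.25% were called and 87.5% had an interval inside 1.5-fold. In lists this small, no call is near that overall share. At an unadjusted limma p-value under 0.05 there were 3 endothelial, 3 DNA replication and 0 cyclin-dependent kinase inhibitor genes. The share of all tested genes under that threshold is not given here. Motile cilia genes, which drive mucus clearance, gave no call among 15 (6 at an unadjusted p-value under 0.05), with a median log2 difference of -0.21.

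The squamous and basal epithelial list held many of the lowest genes. Of 18 members on the array 13 were tested, and 6 of these were undetected on both mRID PTU arrays, so they passed the filter through WT control lung alone. Among the 13, 7 were called lower and none higher, with a median log2 difference of -0.59. With no detection filter 5 were called lower and the median was -0.49, and over all settings the median ran between -1.34 and -0.27. Krt13, a keratin of stratified epithelium, had 4.43 and 4.23 in mRID PTU lung, against 7.90 and 7.84 in WT control lung. It was not well above background on either mRID PTU array, so its signal was at least 9.52-fold lower (adjusted p = 6.79e-08). Its partner keratin Krt4 had 4.81 and 4.76 in mRID PTU lung, against 8.03 and 8.12 in WT control lung, 9.79-fold lower (adjusted p = 6.79e-08). Psca, a surface protein of stratified and glandular epithelium, was 9.16-fold lower. The groups did not overlap for any of these. Trp63, the master transcription factor of basal cells, was not detected on the mRID PTU arrays and was at least 2.34-fold lower (adjusted p = 2.76e-05, log2 means of 4.50 in mRID PTU and 5.84 in WT control lung). Krt14 was 2.95-fold lower and Krt15 1.69-fold lower. Ngfr, a basal cell receptor, was at least 1.38-fold lower, and its call was lost without WT control array A (log2 difference -0.41), mRID PTU array A (-0.65) or mRID PTU array B (-0.54). Krt15 lost its call without WT control array A (-0.55). Outside the list, the keratin Krt17 was at least 3.68-fold lower and Nccrp1, a gene of stratified epithelium, at least 3.43-fold lower, both undetected on the mRID PTU arrays.

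Airway secretory genes moved in the same direction. Of 10 tested, 5 were called lower and none higher, with a median log2 difference of -0.50. With no detection filter, which adds members that passed it in neither group, the 5 calls stood and the median was -0.14. Scgb3a1, a secretoglobin of the upper airway, had the lowest difference of all named genes, at 5.64 and 5.67 in mRID PTU lung against 9.79 and 9.84 in WT control lung, or 17.9-fold lower (adjusted p = 2.36e-08). A further probe of Scgb3a1 had a log2 difference of -0.93. Reg3g, an antibacterial lectin, had 5.43 and 5.45 in mRID PTU lung and 8.97 and 9.04 in WT control lung, 11.8-fold lower (adjusted p = 5.43e-08). Bpifb1, Lypd2 and Aldh1a1 were 2.25-fold, 1.73-fold and 1.53-fold lower, and Aldh1a1 lost its call without WT control array B (-0.60) or mRID PTU array A (-0.54). Scgb1a1, the club cell secretoglobin of the distal airway, had 13.72 and 13.76 in mRID PTU lung, against 14.12 and 14.13 in WT control lung, a log2 difference of -0.38 that did not reach 1.5-fold. In RNA of whole lung, fewer cells of a type and less RNA per cell cannot be told apart. For the squamous and airway lists, the part of tissue from outside the lung in these RNA samples was not tested.

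Cardiac muscle genes formed the most uniformly lower list. Of 15 tested members 11 were called lower, none higher. All 15 lay below 0 with a median log2 difference of -1.60, where 46% of all tested genes lay above 0 and 54% below it. Of the 15, 2 were undetected on both mRID PTU arrays. With no detection filter 10 were called lower and the median was -1.18. The summed signal of the list was 1922 and 1960 on the mRID PTU arrays, against 6091 and 5961 on the WT control arrays. Cardiac troponin C, Tnnc1, had 6.99 and 6.88 in mRID PTU lung and 8.98 and 8.96 in WT control lung, 4.09-fold lower (adjusted p = 2.91e-06). The atrial genes Sln (sarcolipin), Myl7 and Myl4 (myosin light chains) were 4.08-fold, 3.42-fold and 3.03-fold lower. Myl3, the ventricular light chain, was 3.62-fold lower, Ankrd1 was 3.87-fold lower and the cardiac actin Actc1 was 3.22-fold lower. Tnni3 was 1.55-fold lower, with its call lost without WT control array A (log2 difference -0.49) or mRID PTU array A (-0.55). Heart muscle is not a component of the lung parenchyma, although the walls of pulmonary veins carry cardiac muscle in the mouse; the part of heart tissue in these RNA samples was not tested.

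Promoters of the called cardiac genes are shown because these genes moved together. RefSeq (GRCm38.p6) gave 1 promoter for 9 of the 11. In the 250 bases before the start site, on both strands, 3 of the 9 (33.3%) held a CArG box, which serum response factor binds. The share was 1.38% of 22856 genes with 1 promoter. It was 1.25% of the 6480 such genes that were tested and 5.21% of the 96 called lower. A MEF2 site was found in 1 of the 9 (11.1%), against 3.11%, 1.57% and 7.29% of the same sets in that order. These matches are descriptions of sequence and show no binding. The 96 called lower include the 9 cardiac genes, and 3 of the 5 with a CArG box are these cardiac genes. Cardiac genes that were not called were not counted as a set, so the shares do not set the called members apart from them. The 3 promoters follow, 5′ to 3′ on the strand of the gene, with the CArG box in capitals: Actc1 at chr2:114052876-114053125 (minus strand), Myl3 at chr9:110763428-110763677 (plus strand) and Myl7 at chr11:5898783-5899032 (minus strand).
Actc1: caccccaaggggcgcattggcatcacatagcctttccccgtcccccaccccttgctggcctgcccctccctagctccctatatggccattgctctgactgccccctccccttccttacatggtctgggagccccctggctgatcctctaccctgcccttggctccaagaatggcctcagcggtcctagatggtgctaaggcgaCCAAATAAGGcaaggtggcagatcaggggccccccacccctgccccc
Myl3: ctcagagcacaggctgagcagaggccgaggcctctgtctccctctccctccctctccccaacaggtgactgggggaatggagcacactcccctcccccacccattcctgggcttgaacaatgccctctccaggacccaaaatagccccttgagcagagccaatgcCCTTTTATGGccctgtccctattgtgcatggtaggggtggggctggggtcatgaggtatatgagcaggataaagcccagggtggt
Myl7: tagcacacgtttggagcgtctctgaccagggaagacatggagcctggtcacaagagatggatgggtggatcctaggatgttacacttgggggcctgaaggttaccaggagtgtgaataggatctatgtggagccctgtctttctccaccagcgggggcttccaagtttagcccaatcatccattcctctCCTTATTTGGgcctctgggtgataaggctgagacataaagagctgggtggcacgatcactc

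**Figure D2:**
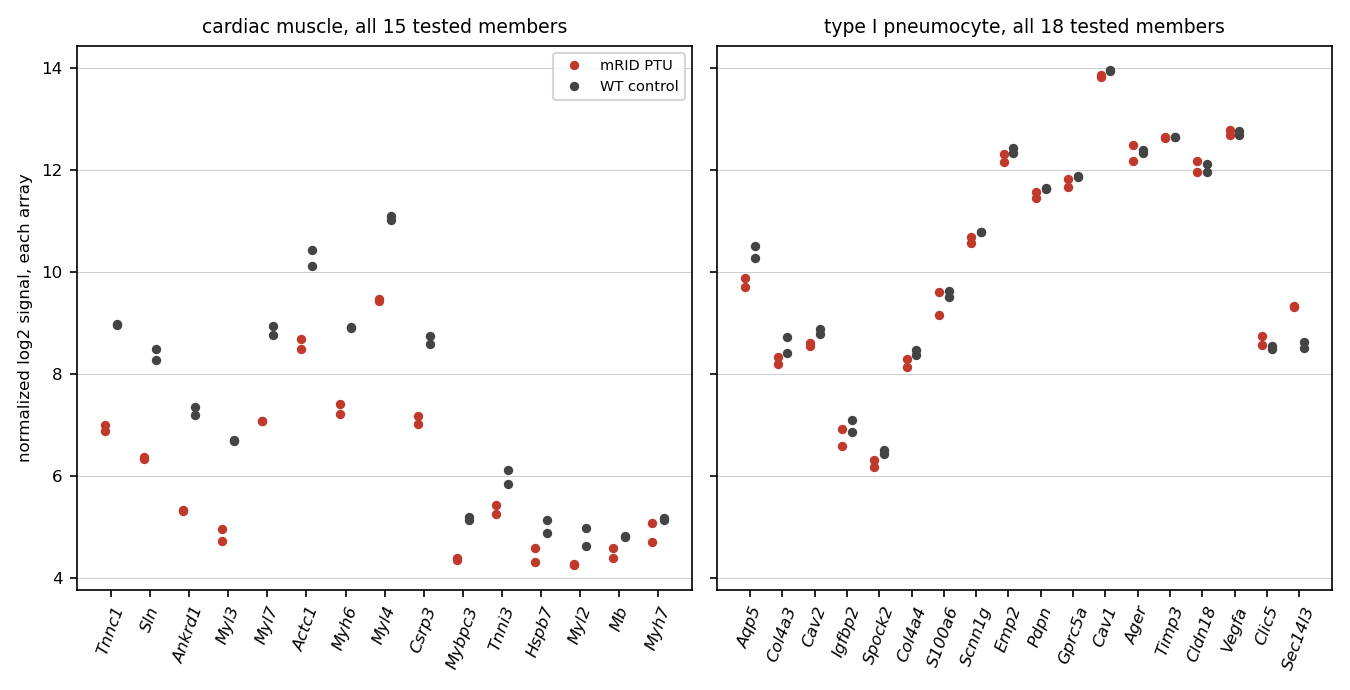
Normalized log2 signal on each array for the 15 tested cardiac muscle genes (left) and the 18 tested type I pneumocyte genes (right), ordered by difference, with mRID PTU arrays in red left of WT control arrays in grey. The cardiac genes sit lower in mRID PTU at the left of their panel, and most type I genes lie at nearly the same signal in both groups.

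Skeletal muscle genes were split. Of 14 tested, 2 were called higher and 4 lower (42.9% together, against 4.25% of all tested genes). The median log2 difference was -0.06. Acta1, the skeletal actin, had 6.75 and 6.70 in mRID PTU lung, against 5.14 and 5.18 in WT control lung, 2.96-fold higher (adjusted p = 1.02e-05). The perinatal myosin Myh8 was 2.09-fold higher, but its further probe, at a log2 difference of 0.39, was not called. The sarcomere genes Actn2 and Ttn, which the heart also expresses, were 2.78-fold and 2.51-fold lower, and Tnnt1 and Ckm were 1.97-fold and 1.72-fold lower. The summed signal of the list was 2253 and 2116 in mRID PTU lung, against 2312 and 2319 in WT control lung. Among oxidative phosphorylation genes, 3 of 21 were called lower, and all were muscle forms of cytochrome oxidase subunits: Cox6a2 (3.02-fold), Cox8b (1.98-fold) and Cox7a1 (1.55-fold). Cox7a1 lost its call without WT control array B (log2 difference -0.47), mRID PTU array A (-0.68) or mRID PTU array B (-0.59). Of 15 fatty acid oxidation genes, Fabp3, the heart-type fatty acid binding protein, was called lower (2.26-fold) and none higher.

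Of 12 liver genes on the array 5 were tested, and all 5 were undetected on both WT control arrays. They passed the filter only through mRID PTU lung, and the 4 calls among them say nothing about the list. With no detection filter the median of the list was 0.21. The summed signal of the 5 tested members was 212 and 202 on the mRID PTU arrays, against 96.5 and 99.5 on the WT control arrays. The WT control sums are of undetected genes, so this gap too says nothing about the list. Ahsg (fetuin) had 5.96 and 5.97 in mRID PTU lung, against 4.23 and 4.31 in WT control lung, at least 2.59-fold higher (adjusted p = 7.36e-06). Ttr, the thyroid hormone carrier transthyretin, was at least 2.16-fold higher, Afp at least 1.34-fold and Apoa1 at least 1.25-fold. Apoa1 lost its call without WT control array A (log2 difference 0.55). The part of liver tissue in these samples was not tested.

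Among 11 erythroid genes 3 (27.3%) were called lower, against 1.47% of all tested genes, and none higher. The median log2 difference was -0.01. Slc4a1, the anion exchanger of the red cell membrane, had 9.42 and 9.34 in mRID PTU lung, against 10.45 and 10.45 in WT control lung, 2.10-fold lower (adjusted p = 0.0001). The blood group protein gene Kel was 1.93-fold lower and Trim10, an erythroid ring finger gene, 2.58-fold lower.

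Interferon response genes gave 3 lower calls among 15 (20%, against 1.47% of all tested genes) and none higher. Their median log2 difference was -0.34. Rsad2 (viperin) was 2.96-fold lower, at 8.21 and 8.20 in mRID PTU lung against 9.74 and 9.80 in WT control lung (adjusted p = 1.02e-05). Ifi27l2a was 2.17-fold lower. Ifit3, an interferon-induced RNA-binding protein, was 2.00-fold lower. Among macrophage genes the scavenger receptor Cd163 (1.66-fold) and the complement gene C1qb (1.54-fold) were called lower and Marco, a scavenger receptor, higher (at least 1.38-fold), of 16 tested. C1qb lost its call without WT control array B (-0.58) or mRID PTU array A (-0.52), and Marco, undetected in WT control lung, without WT control array B (0.61) or mRID PTU array A (0.52). Of 12 neutrophil and acute phase genes Saa3 was 2.08-fold higher and Ltf 1.62-fold lower. Of 8 MHC class II genes H2-Aa was 1.51-fold lower, a call lost without WT control array A (-0.56) or mRID PTU array B (-0.57).

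Among 15 immediate early genes, which respond within minutes to growth signals, 4 were called lower and none higher. Fos had 9.69 and 9.78 in mRID PTU lung, against 10.41 and 10.56 in WT control lung, 1.68-fold lower (adjusted p = 0.00125). Fosb and Atf3 were 1.97-fold and 1.71-fold lower. Egr1 was 1.57-fold lower, and its call was lost without WT control array A (log2 difference -0.58). Of 18 heat shock genes only Hspa1a was called lower (1.51-fold), and it lost the call without WT control array A (-0.45) or mRID PTU array A (-0.59).

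Krüppel-like factors differed in both directions. Of 14 tested members of that list, 3 were called higher and 1 lower. Klf6 was at 10.82 and 10.71 in mRID PTU lung, against 9.75 and 9.81 in WT control lung, 1.98-fold higher (adjusted p = 0.000191). Klf13 was 2.10-fold and Klf7 1.61-fold higher. Klf4 was 1.58-fold lower by its brightest probe (adjusted p = 0.00169), but its other probes had log2 differences of -0.02 and 0.19, and with the mean of its probes the call was lost, at -0.16. Klf2, a zinc finger factor of endothelium and late lung maturation, had 10.31 and 10.19 in mRID PTU lung, against 10.75 and 10.90 in WT control lung. Its log2 difference of -0.58 (adjusted p = 0.00697) was 1.49-fold and fell just short of the rule. It passed with median scaling (-0.69) and without WT control array A (-0.65) or mRID PTU array A (-0.63). Klf9, a thyroid hormone response gene, had a log2 difference of 0.52, or 1.44-fold, and was not called.

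Of 14 tested thyroid hormone genes, 8 (57.1%) had an interval inside 1.5-fold, against 87.5% of all genes. An unadjusted limma p-value under 0.05 was found for 10 of the 14. The share of all tested genes under that threshold is not given here, so this count says nothing about the list. By the rule 2 were called higher and none lower. They were the mitochondrial glycerol phosphate dehydrogenase Gpd2 (1.68-fold) and Ttr, above. Ttr passed the filter only through mRID PTU lung, so its call says nothing about the list. Of the 14, 1 was undetected in mRID PTU lung and 1 in WT control lung. With no detection filter the median log2 difference of the list was -0.06, against 0.14 with it. Thra, which encodes a thyroid hormone receptor, had 5.10 and 5.15 in mRID PTU lung, against 4.62 and 5.03 in WT control lung (adjusted p = 0.221). The probe for Thrb was detected on 0 of the 4 arrays. Of 17 corepressor and histone deacetylase genes, Tbl1x, a subunit of nuclear receptor corepressor complexes, was called higher (1.69-fold). Of 18 nuclear receptors Rora was called higher (1.61-fold), and its call was lost without WT control array A (log2 difference 0.76), WT control array B (0.59) or mRID PTU array B (0.44).

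Matrix genes included large differences in both directions. Of 24 tested, 2 were higher and 3 lower (20.8% together, against 4.25% of all tested genes). The median log2 difference was 0.01. Lum, a keratan sulfate proteoglycan of collagen fibrils, had 5.25 and 5.23 in mRID PTU lung, against 7.59 and 7.78 in WT control lung, 5.44-fold lower (adjusted p = 1.02e-06). Mfap5, a microfibril glycoprotein, was 2.96-fold lower and Dcn (decorin) 1.65-fold lower. The collagen gene Col1a2 was 2.20-fold higher, at 10.71 and 10.86 in mRID PTU lung against 9.65 and 9.64 in WT control lung, and the fibrillin Fbn2 was 1.52-fold higher. Among 27 morphogens and mesenchymal regulators Tgfb2 (1.88-fold) and Wnt2 (1.69-fold) were higher and none was lower. That is 7.41% of the list, against 4.25% of all tested genes. Of 14 insulin-like growth factor genes Irs2, Igf2bp1 and Igf1r were called higher and Igfbp3 lower (1.88-fold), and Igf1r lost its call without WT control array B (0.54) or mRID PTU array A (0.48).

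The 15 called genes with the highest difference lay between 2.70-fold and 4.01-fold by the fitted values. Zc3h13, a part of the RNA methylation complex, had 8.49 and 8.40 in mRID PTU lung, against 6.41 and 6.46 in WT control lung, 4.01-fold higher (adjusted p = 2.95e-06). Irs2, an adaptor of the insulin receptor, had 7.28 and 7.22 in mRID PTU lung and 5.28 and 5.41 in WT control lung, 3.74-fold higher (adjusted p = 4.25e-06). Man2a2, a Golgi mannosidase, was 3.89-fold higher, and Bach1, a repressor of antioxidant genes, was 3.51-fold higher. The translation repressors Eif4ebp2 and Pdcd4 were 3.11-fold and 2.96-fold higher, and the RNA helicase Ddx6 was 2.98-fold higher. The other members were Synm, Crh, Bbx, Ahsg, Iffo2, Acta1, Lims1 and Samd4. No array of the groups overlapped for any of the 15, which their choice by size of difference made likely. Ahsg, undetected in WT control lung, passed the filter only through mRID PTU lung.

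Among the 15 lowest were also Paip1, a poly(A)-binding protein partner, and Itga9, an integrin subunit. Each was measured by 1 kept probe, with no other kept probe to compare. Paip1 had 5.49 and 5.62 in mRID PTU lung, against 8.97 and 8.88 in WT control lung, 10.3-fold lower (adjusted p = 6.79e-08). Itga9 had 6.15 and 6.02 in mRID PTU lung, against 9.05 and 9.07 in WT control lung, 7.87-fold lower (adjusted p = 1.34e-07).

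The wild type on the same diet showed where these genes stood without the mutation. In the fit of 6 arrays (10241 genes), 276 (2.7%) genes were higher and 146 (1.43%) lower in mRID PTU than in WT control lung. Against WT PTU lung 367 (3.58%) were higher and 73 (0.713%) lower in mRID PTU lung. In WT PTU lung 113 (1.1%) were higher and 255 (2.49%) lower than in WT control lung. These comparisons share arrays, so values are given side by side and the lists are not compared.

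The 15 lowest genes also had lower signal in WT PTU than in WT control lung. They were chosen for high signal on the WT control arrays relative to mRID PTU, and the same WT control arrays are used here. Their low values against WT control are therefore partly set by that choice and give no independent evidence about the diet. For the 15 genes the log2 difference of mRID PTU from WT PTU had a median of 0.08, with a range of -1.26 to 0.83. That of WT PTU from WT control had a median of -2.35. Scgb3a1 had 5.68 and 5.36 in WT PTU lung, Krt13 had 4.24 and 4.30, and Tnnc1 had 6.87 and 6.87. Paip1 (log2 difference 0.83, adjusted p = 0.00048), Lum (-1.26, adjusted p = 5.3e-05) and Myl3 (-0.70, adjusted p = 0.0022) were the members of the 15 called between mRID PTU and WT PTU lung. Lum was thus intermediate in WT PTU lung, at 6.44 and 6.45.

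Of the 15 highest genes, 2 (Crh and Ahsg) were called different between WT PTU and WT control lung and 13 were not. The log2 difference of WT PTU from WT control had a median of -0.00 over the 15, and that of mRID PTU from WT PTU a median of 1.70. These genes were chosen for high signal on the same mRID PTU arrays. The 1.70 is therefore partly set by that choice and gives no independent evidence about the genotype. Zc3h13 had 6.26 and 5.90 and Irs2 had 5.41 and 5.17 in WT PTU lung. Crh, corticotropin-releasing hormone, had 6.12 and 6.87 in mRID PTU lung, 7.52 and 8.09 in WT PTU lung and 4.83 and 4.65 in WT control lung. Its level was highest in WT PTU lung, and mRID PTU lung was lower than WT PTU lung by a log2 difference of -1.37 (adjusted p = 0.0056). Ahsg was called higher in WT PTU than in WT control lung (log2 difference 0.69), and mRID PTU lung was higher again by 0.95 (adjusted p = 0.00067).

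**Figure D3:**
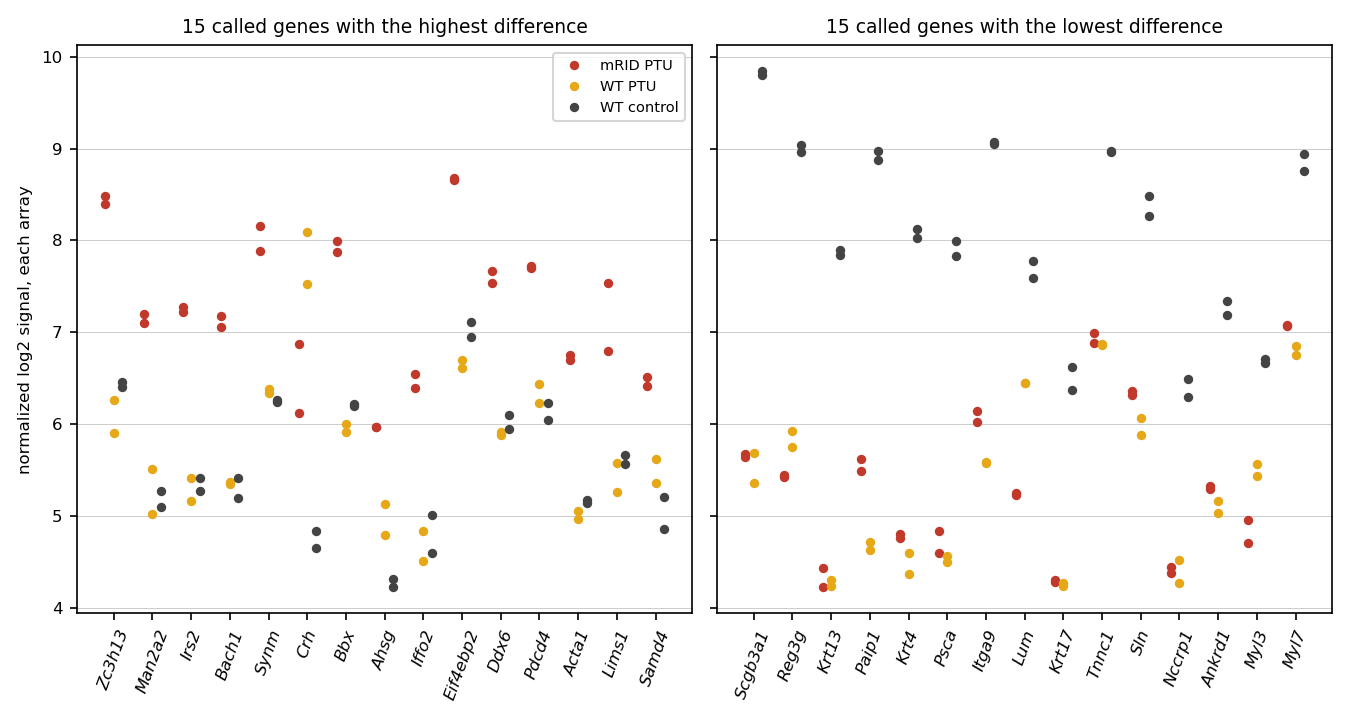
Normalized log2 signal on each array for the 15 called genes with the highest (left) and lowest (right) difference, with mRID PTU in red, WT PTU in yellow and WT control in grey. On the right the red and yellow points all lie below the grey ones, and mRID PTU and WT PTU were called different for Paip1, Lum and Myl3. On the left the yellow points lie near the grey ones except for Crh and Ahsg.

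Angptl4 and Hbb-y were not called between mRID PTU and WT control lung and were called between WT PTU and WT control lung. Angptl4, a lipoprotein lipase inhibitor, had 6.99 and 7.16 in mRID PTU lung, 8.57 and 8.57 in WT PTU lung and 6.82 and 6.68 in WT control lung. The difference of mRID PTU from WT PTU was -1.55 (adjusted p = 2.7e-05). The embryonic globin Hbb-y had 6.91 and 7.05 in mRID PTU lung, 7.88 and 8.002 in WT PTU lung and 6.88 and 6.94 in WT control lung (mRID PTU minus WT PTU -0.99, adjusted p = 0.00093). Fos, lower than WT control in both, was lower in WT PTU lung, at 8.71 and 8.74, and mRID PTU exceeded WT PTU by 0.98 (adjusted p = 0.00015). Egr1 and Ifit3, also called lower than WT control in mRID PTU lung, exceeded WT PTU by 0.87 (adjusted p = 0.00057) and 1.27 (adjusted p = 4.8e-05). Klf9 lay above WT control in mRID PTU lung by 0.52 and below it in WT PTU lung, by a log2 difference of -0.44, and mRID PTU exceeded WT PTU by 0.96 (adjusted p = 0.00014). Klf2 had 9.81 and 9.90 in WT PTU lung, and the difference of mRID PTU from it, 0.37 (adjusted p = 0.037), did not reach 1.5-fold.

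The called genes differed in length and in how their other probes behaved. Genes called higher spanned a median of 45.1 kb in RefSeq (n = 282), genes called lower 12.8 kb (n = 149), and genes not called 21.9 kb (n = 9710). Of the genes called higher, 74 had 99 other kept probes: 83 of these had the same sign, 35 were themselves called higher and 0 were called lower, with a median log2 difference of 0.39. Of the genes called lower, 30 had 35 other kept probes: 32 had the same sign, 20 were themselves called lower and 0 higher, with a median of -0.65. Other probes of Ddx6 (1.23 and 1.68), Man2a2 (1.40 and 1.27) and Ankrd1 (-1.47) moved the same way, whereas those of Synm were at 0.02 and 0.24 against 1.77 for the probe used. Higher calls were more frequent among dim genes, with 90 among the 2536 dimmest and 38 among the 2536 brightest, and lower calls numbered 61 and 15.

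**Figure D4:**
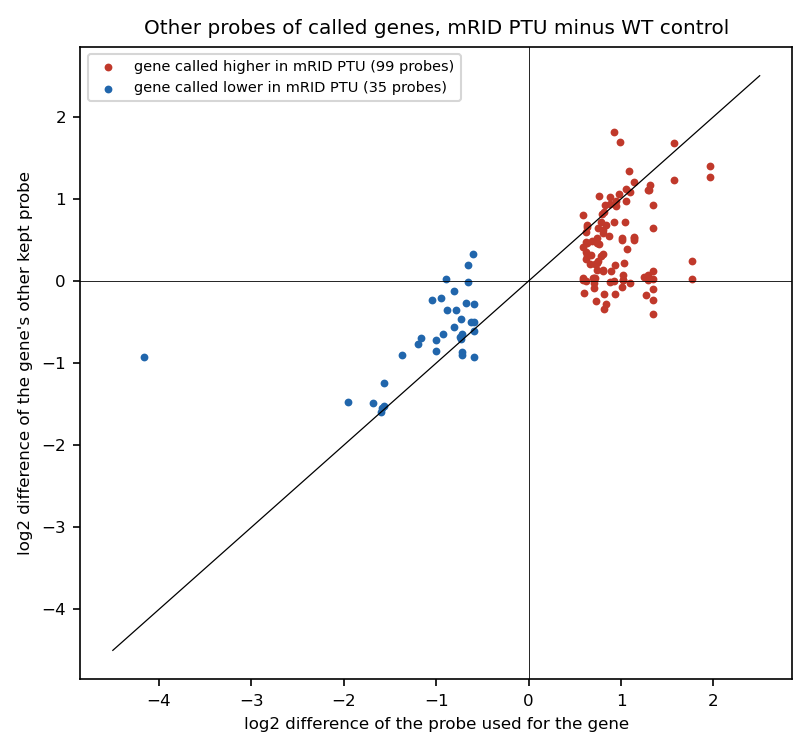
Log2 difference, mRID PTU minus WT control, of the other kept probes of called genes (vertical) against that of the probe used (horizontal); 99 red points belong to genes called higher and 35 blue points to genes called lower, and the diagonal marks equality. Most points share the sign of the probe used, and many red points lie below the diagonal near 0.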

How the data were processed

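RNA of E18.5 lung was hybridised to Illumina bead arrays with 25697 probes, and GenomeStudio is named in the submitters' processing notes. The deposited table gives, per the file headers, an average signal intensity and, a detection p-value per array, not normalized. The authors' deposited value table (column medians 52.3 to 52.4 on a linear intensity scale, with the normalization not given in the sources used here) served as an alternative. Columns carry the letters A and B, which were kept as array names only.

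Signals of the 4 arrays were background-corrected (normexp from detection p-values, offset 16), log2-transformed and quantile-normalized with limma 3.58.1 in R 4.3.3. Probes with detection p under 0.05 on both arrays of either group were kept. GEO's platform annotation named 1 gene for 23978 probes and left 1719 unlisted. Of the named probes 23962 matched RefSeq. Where a gene had several kept probes, the brightest was used. Group means were fitted with lmFit and eBayes (2 residual and 7.55 prior degrees of freedom), with Benjamini-Hochberg adjustment over 10144 genes. A gene undetected on both arrays of a group has a bound, written "at least". The code was tested on simulated data.

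The genes named were the 15 highest and 15 lowest called, called members of each gene list with up to 4 further members of largest difference, list members inside 1.5-fold, and Thra, Thrb, Klf2, Klf9 and Nkx2-1. Samples, members and lists were chosen with earlier results of these data known. Precision is limited by 2 arrays and 1 RNA sample a group.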

Additional observations from a re-analysis of the deposited data

How the results depend on the processing

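The counts of 282 higher and 149 lower genes were 151 and 75 with no background correction, 156 and 76 with an offset of 50, and 150 and 69 with the deposited processed values, where the root mean square log2 difference was 0.213, 0.216 and 0.211 instead of 0.286. Of 100 called named genes, 77, 78 and 76 kept their call under these settings, and those that lost it under all 3 were Afp, Apoa1, Aqp5, Atf3, C1qb, Cd163, Ckm, Cox7a1, Cox8b, Fbn2, Fosb, H2-Aa, Hspa1a, Igf1r, Kel, Marco, Mybpc3, Ngfr, Rora, Sox9, Tbl1x and Tnni3. The root mean square difference was 0.296 with median scaling (245 higher, 160 lower, median of all genes -0.09), 0.292 at detection p under 0.01, 0.277 with the mean of all kept probes and 0.283 with all 8 arrays. With no detection filter 15124 of 16593 genes had an interval inside 1.5-fold, at a root mean square of 0.230. Leaving out each array in turn, where the lone array is assumed to vary like the other group, gave 275 to 289 higher and 142 to 165 lower genes, 8091 to 8462 inside 1.5-fold, and a root mean square of 0.293 to 0.300. No named call changed sign under the alternatives run. In the fit of 6 arrays, no background correction (chosen after seeing the data) gave 68 higher and 152 lower for WT PTU against WT control, and 205 higher and 27 lower for mRID PTU against WT PTU. With the array letter as a replicate block the counts were 282 and 149, with 8959 genes inside 1.5-fold and a root mean square of 0.286. The letters share only a name: the deviations of the arrays correlated at -0.0594 across genes. The cause of these changes was not tested. With 1 RNA sample a group, no setting measures the spread between embryos.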

Other observations

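Called genes were spread over the chromosomes. Leaving out chromosome Y, with 3 tested genes and 0 called, the share of tested genes called lay between 2.34% on chromosome 8 and 5.81% on chromosome 9. The thyroid hormone half-site AGGTCA, searched on both strands of the 250 bases before the start site, was present for 11 of 175 genes called higher that had 1 promoter in RefSeq (6.29%) and for 8 of 96 called lower (8.33%), against 650 of 6480 tested genes (10%).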
